A study of Mus musculus with 36 samples.

Results

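The comparison described here asks whether the lung's response to repeated allergen challenge differs with the mast cells a mouse carries. It is a difference of differences: the ovalbumin (OVA) response of KitWsh_MCifngR mice, OVA minus phosphate-buffered saline (PBS), minus the same response of KitWsh_MC mice. It uses 14 of the 36 lung arrays of the series, 4 from KitWsh_MCifngR OVA mice, 3 from KitWsh_MCifngR PBS mice, 4 from KitWsh_MC OVA mice and 3 from KitWsh_MC PBS mice. All 14 are from C57BL/6 mice of the KitWsh genotype, described as female and age-matched, whose line had been crossed back to C57BL/6J for over 10 generations. On days 1, 4 and 7 OVA mice were injected intraperitoneally with 50 µg OVA, carried in 0.1 ml PBS, and from day 12 took 20 µg OVA in 30 µl PBS through the nose each week for 9 weeks. PBS mice received PBS alone on that schedule. No label explains the engraftment codes MCifngR and MC, although IFN-γR1-/- mice are among the strains used. The codes are taken here to mean mast cells of donors without the interferon gamma (IFN-γ) receptor and of wild-type donors, so that both groups have engrafted mast cells in a recipient that makes few or none of its own, and every other lung cell is the recipient's. Whether each array is a different mouse is not stated, and the p-values rest on the spread among arrays, which may be technical.

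As background, KitWsh mice carry an inversion next to Kit, the receptor of stem cell factor, and lose their mast cells, which can be replaced by injecting mast cells grown from bone marrow. Mast cells store histamine and proteases in granules and release them with cytokines when antigen binds the IgE on their surface. IFN-γ, made by T and NK cells, binds a receptor built of Ifngr1 and Ifngr2 and signals through the kinases Jak1 and Jak2. Many genes it induces carry short DNA elements known as GAS (gamma-activated) sites. Long OVA exposure of sensitised mice gives a lung with eosinophils, mucus cells in the airway lining and remodelled matrix.

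Of 11414 genes tested, 5 differed in their OVA response between the 2 kinds of mice at an adjusted p under 0.05, which is 0.0438% of those tested (limma, Benjamini-Hochberg, two-sided, on log2 intensities). The response of 4 genes (0.035%) was lower in KitWsh_MCifngR mice: Tspan4, Timp1, Mt2 and Ccl12. The response of 1 (0.00876%), Igfbp3, was higher. At an unadjusted p under 0.05 there were 1625 genes, 14.2% of those tested, of which 754 (6.61%) were higher and 871 (7.63%) lower. Over all tested genes the median difference of the response was -0.01 on the log2 scale. Within KitWsh_MCifngR mice OVA changed 11 genes (0.0964%), 6 up (0.0526%) and 5 down (0.0438%). Within KitWsh_MC mice it changed 1023 (8.96%), 627 up (5.49%) and 396 down (3.47%). These counts do not themselves test a difference between the kinds.

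Some arrays stood apart. KitWsh_MCifngR OVA arrays 2 and 3 had mean Y-linked transcript levels of 7.71 and 7.30, against at most 2.20 in the other 12, and Xist at 7.30 and 7.70, although all mice are described as female. The difference between 3' and 5' probe sets of beta-actin and GAPDH, which grows as RNA is degraded or incompletely copied, averaged 6.50 in KitWsh_MC OVA array 2 and 6.16 in KitWsh_MCifngR OVA array 1, against 1.77 to 4.59 elsewhere. KitWsh_MC OVA array 2 also had the lowest median correlation with the other arrays (0.895). Correlations between 2 arrays ran from 0.873 to 0.991, so no 2 were the same array. KitWsh_MCifngR mice were higher than KitWsh_MC mice over all genes, by a median of 0.19 among OVA arrays and 0.23 among PBS arrays, a shift that the difference of the responses mostly cancels. Among OVA arrays 2703 genes (23.7%) differed between the kinds and among PBS arrays 267 (2.34%). The 7 alveolar type 2 cell genes averaged 12.4 to 13.3 in all 14 arrays.

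The largest of the 5 differences was that of Timp1, an inhibitor of matrix metalloproteinases. Timp1 had log2 values of 5.70, 7.60, 7.40 and 8.50 in KitWsh_MCifngR OVA lungs and 5.97, 6.30 and 6.25 in KitWsh_MCifngR PBS lungs. It had 11.06, 10.41, 11.28 and 10.90 in KitWsh_MC OVA lungs and 4.90, 5.40 and 5.48 in KitWsh_MC PBS lungs. All 4 KitWsh_MC OVA lungs thus lay above every other lung, and the KitWsh_MCifngR OVA lungs spread over nearly 3 log2 units, array 1 lying at the level of PBS lungs. The OVA response was 1.13 ± 0.46 (log2, standard error) in KitWsh_MCifngR mice, which did not pass the test (adjusted p = 0.596), and 5.65 ± 0.46 in KitWsh_MC mice (adjusted p = 9.4e-05). Its difference was -4.52 ± 0.65, with a 95% interval of -5.93 to -3.12 (limma, adjusted p = 0.031).

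Tspan4, a tetraspanin of the cell membrane known from migrasomes, had the smallest p of all genes. Its log2 values were 8.72, 8.56, 8.89 and 8.84 in KitWsh_MCifngR OVA lungs and 10.67, 10.81 and 10.72 in KitWsh_MCifngR PBS lungs. In KitWsh_MC mice they were 10.83, 9.90, 10.61 and 10.52 in OVA lungs and 9.76, 10.07 and 10.23 in PBS lungs. Here it was the KitWsh_MCifngR OVA lungs that lay apart, below all 10 others, and the spread within them was the narrowest among the OVA groups of the 5 genes. Tspan4 fell in KitWsh_MCifngR mice (-1.98 ± 0.21, adjusted p = 0.00178), and its response of 0.44 ± 0.21 in KitWsh_MC mice did not pass (adjusted p = 0.184). The difference was -2.43 ± 0.29, with an interval of -3.05 to -1.80 (limma, adjusted p = 0.0101).

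Mt2 encodes a metallothionein, a small cysteine-rich protein that binds zinc and other metals. It had log2 values of 9.51, 9.60, 9.66 and 10.40 in KitWsh_MCifngR OVA lungs and 9.99, 9.77 and 10.60 in KitWsh_MCifngR PBS lungs. The KitWsh_MC lungs had 11.70, 11.39, 11.77 and 11.65 with OVA and 9.56, 9.82 and 9.65 with PBS. As for Timp1, the 4 KitWsh_MC OVA lungs stood above the other 10, which overlapped. The difference of the response was -2.28 ± 0.33 (limma, adjusted p = 0.031), from -0.33 ± 0.23 in KitWsh_MCifngR mice and 1.95 ± 0.23 in KitWsh_MC mice. Its neighbour Mt1, named after its values were seen, had 10.33, 10.19, 10.13 and 10.88 in KitWsh_MCifngR OVA lungs and 10.80, 10.66 and 11.37 in KitWsh_MCifngR PBS lungs. It had 11.65, 11.92, 11.45 and 11.50 in KitWsh_MC OVA lungs and 10.61, 10.73 and 10.48 in KitWsh_MC PBS lungs. The Mt1 difference of -1.58 ± 0.31 did not pass the test (limma, adjusted p = 0.0945), and its probe set, of a class that can match related transcripts, may share signal with Mt2.

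The start regions of Mt2 and Mt1 are shown because the pair lies side by side on chromosome 8 and the metallothioneins are the textbook targets of the metal-sensing factor Mtf1. Each runs from 250 bases before to 50 after a RefSeq start (GRCm38.p6, plus strand), 5' to 3'. Capitals mark TGCNCNC, searched on both strands, where matches may overlap. It is a looser pattern than the core of the metal response element, TGCRCNC, in which R is A or G. Not every marked stretch of Mt2 has that core. The Mt2 region is chr8:94172368-94172667 and the Mt1 region chr8:94178839-94179138.
Mt2: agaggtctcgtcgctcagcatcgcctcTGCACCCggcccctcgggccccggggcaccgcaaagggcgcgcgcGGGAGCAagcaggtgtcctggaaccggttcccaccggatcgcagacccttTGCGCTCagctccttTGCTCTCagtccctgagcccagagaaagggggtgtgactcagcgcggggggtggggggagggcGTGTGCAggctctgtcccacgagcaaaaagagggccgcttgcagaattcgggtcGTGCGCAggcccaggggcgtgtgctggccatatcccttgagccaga
Mt1: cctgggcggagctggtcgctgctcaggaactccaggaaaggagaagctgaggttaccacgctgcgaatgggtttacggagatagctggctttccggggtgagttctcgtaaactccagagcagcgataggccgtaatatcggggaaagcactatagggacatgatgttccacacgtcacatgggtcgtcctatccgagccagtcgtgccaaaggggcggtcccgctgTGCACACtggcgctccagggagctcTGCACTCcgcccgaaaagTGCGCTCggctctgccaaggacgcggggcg
The Mt2 region held 6 matches to TGCNCNC and the Mt1 region 3. The region of Igfbp3, the called gene whose difference ran the other way, also held 6. Of all 32851 RefSeq start regions of this length used here, 51% held at least 1 match, 7.1% at least 3 and 0.225% at least 6. A match describes the sequence and is not a measured binding site.

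Ccl12, a mouse chemokine that draws monocytes through the receptor Ccr2, had log2 values of 5.97, 6.82, 6.84 and 8.15 in KitWsh_MCifngR OVA lungs and 6.06, 6.05 and 6.34 in KitWsh_MCifngR PBS lungs. In KitWsh_MC mice it had 8.61, 9.48, 8.30 and 8.30 with OVA and 3.87, 4.35 and 4.37 with PBS. Both pairs of groups were ordered without overlap, but in opposite directions: KitWsh_MCifngR lungs lay below KitWsh_MC lungs after OVA and above them after PBS. The PBS difference alone passed the test (1.95, adjusted p = 0.0407), as did the OVA difference (-1.73, adjusted p = 0.00837). The difference of the response was -3.68 ± 0.57 (limma, adjusted p = 0.0377).

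Igfbp3, which carries insulin-like growth factors in blood and tissue, was the single gene called higher. It had log2 values of 9.95, 10.71, 10.58 and 9.79 in KitWsh_MCifngR OVA lungs and 10.08, 10.01 and 9.77 in KitWsh_MCifngR PBS lungs. The KitWsh_MC lungs had 8.89, 8.53, 7.92 and 8.72 with OVA and 10.36, 10.74 and 10.66 with PBS. The KitWsh_MC OVA lungs were below all others, and the KitWsh_MCifngR groups overlapped. Igfbp3 fell in KitWsh_MC mice (-2.07 ± 0.26, adjusted p = 0.00196), whereas its response of 0.31 ± 0.26 in KitWsh_MCifngR mice did not pass (adjusted p = 0.846). The difference was 2.38 ± 0.37 (limma, adjusted p = 0.0377), and a dimmer probe set of the gene gave 2.54.

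**Figure D1:**
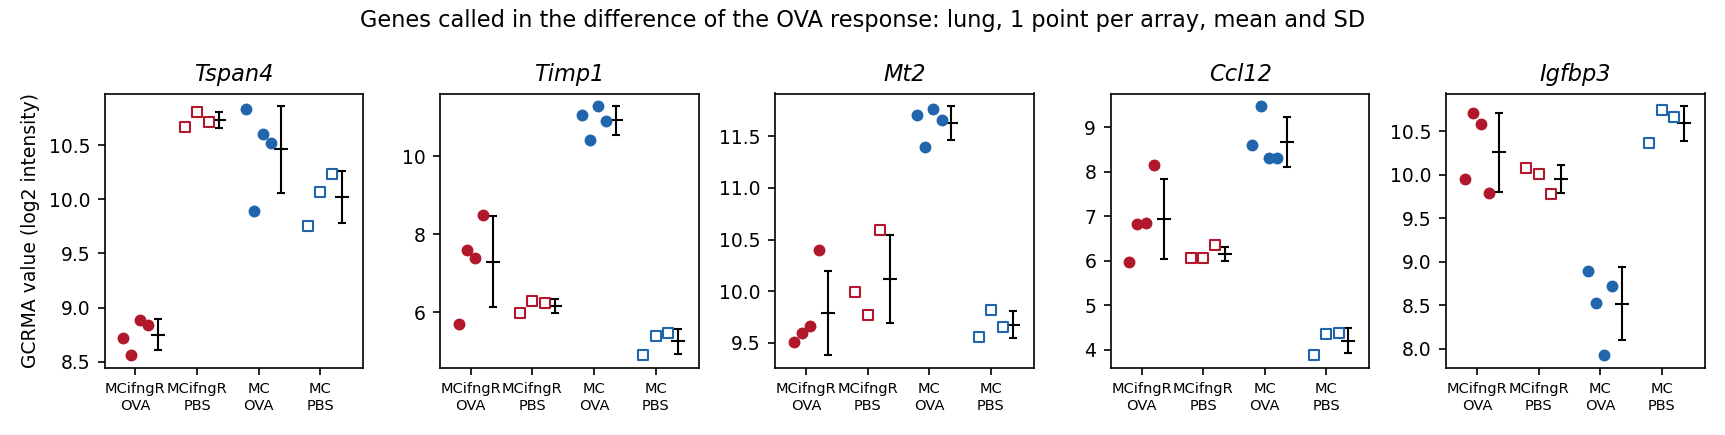
Log2 GCRMA values (y axes) of the 5 called genes in lungs of KitWsh_MCifngR mice (red) and KitWsh_MC mice (blue), with filled circles for OVA arrays, open squares for PBS arrays, and bars for the mean and SD of each group (n = 4 for OVA, n = 3 for PBS). Tspan4 was low in the KitWsh_MCifngR OVA lungs, whereas Timp1, Mt2 and Ccl12 were high and Igfbp3 low in the KitWsh_MC OVA lungs.

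For each of the 5 genes the OVA arrays of the 2 kinds did not overlap, which was so for 20.8% of all tested genes. The PBS arrays did not overlap for 4 of the 5, all but Mt2, against 49.6% of all tested genes. All 5 were also called between the OVA groups. Of the 5, Timp1, Mt2, Ccl12 and Igfbp3 were called in the KitWsh_MC response, Tspan4 in the KitWsh_MCifngR response, and Ccl12 between the PBS groups. These comparisons share arrays with the difference of the response and do not add to it.

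The calls moved with single arrays. Without KitWsh_MCifngR OVA arrays 2 and 3, those with Y-linked transcripts, limma called 0 genes, with 1228 at an unadjusted p under 0.05. The differences were then -2.40 for Tspan4, -4.72 for Timp1, -2.12 for Mt2, -3.57 for Ccl12 and 1.99 for Igfbp3, with adjusted p from 0.0701 to 0.177. Without the 2 arrays of largest 3' to 5' difference there were 21 calls, the 5 among them, at -2.60, -4.16, -2.26, -3.09 and 2.48. Leaving out 1 array at a time gave 0 to 348 calls, and each of the 14 arrays moved the count by over 1.5 times. There were 348 without KitWsh_MCifngR OVA array 4, and 0 without KitWsh_MCifngR PBS array 1 or 3 or KitWsh_MC PBS array 1 or 2 (1445, 941, 1364 and 1379 genes at an unadjusted p under 0.05). Of these 14 fits Tspan4 was called in 10, Mt2 in 6, and Timp1, Ccl12 and Igfbp3 in 5 each, always in the same direction.

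Genes that came next in order of p did not pass the test. In the lower direction these were Saa3, Cxcl12, Aldh1a3, Dclk1, Derl3 and Cyp7b1, with adjusted p from 0.0543 to 0.0945. Saa3, an acute-phase serum amyloid A protein of mouse, had the most negative difference of these: its log2 values were 6.84, 9.66, 8.99 and 10.27 in KitWsh_MCifngR OVA lungs and 6.81, 8.64 and 8.19 in KitWsh_MCifngR PBS lungs, against 11.82, 12.80, 11.81 and 11.57 in KitWsh_MC OVA lungs and 5.27, 5.92 and 5.21 in KitWsh_MC PBS lungs. Its PBS groups, like those of Ccl12, lay apart with the KitWsh_MCifngR lungs higher. The difference of the Saa3 response was -5.47 ± 0.92 (limma, adjusted p = 0.0543). Aldh1a3, an enzyme of retinoic acid synthesis, was above a log2 value of 5 in 3 arrays, all KitWsh_MC OVA, and lay between 2.19 and 2.30 in all 10 lungs outside that group. It entered the test only through the group where it was high, with the rest at the floor of the values, so no size is given for it. Cxcl12, the ligand of the receptor Cxcr4, gave -1.82 on its brightest probe set and -0.23 on another of like brightness, so its probe sets disagreed. Derl3 serves protein degradation at the endoplasmic reticulum of secretory cells (-2.25 ± 0.43), Cyp7b1 hydroxylates oxysterols (-1.87 ± 0.36), and Dclk1 is a kinase known from tuft cells (-2.04 ± 0.38).

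In the higher direction the next 9 were Fabp1, Siglecf, Tnfrsf19, Ptprk, Heph, Upk1b, Npnt, Plcxd3 and Pilra, with adjusted p from 0.0543 to 0.141. Fabp1, a fatty acid binding protein, had 9.08, 7.85, 9.86 and 7.70 in KitWsh_MCifngR OVA lungs and 7.65, 8.04 and 7.66 in KitWsh_MCifngR PBS lungs. It had 6.99, 6.35, 5.24 and 7.06 in KitWsh_MC OVA lungs and 10.47, 9.38 and 9.85 in KitWsh_MC PBS lungs, so that the order of the kinds turned between OVA and PBS. The difference was 4.33 ± 0.73 (limma, adjusted p = 0.0543) and 4.73 on a second probe set. Siglecf, a lectin of eosinophils and alveolar macrophages in mouse, had 5.82, 5.90, 6.87 and 7.24 in KitWsh_MCifngR OVA lungs and 5.43, 5.10 and 5.18 in KitWsh_MCifngR PBS lungs. It had 5.96, 5.38, 5.05 and 5.75 in KitWsh_MC OVA lungs and 6.86, 6.93 and 6.96 in KitWsh_MC PBS lungs. The PBS groups differed by -1.68 (limma, adjusted p = 0.0331), and the difference of the Siglecf response was 2.60 ± 0.45 (adjusted p = 0.0543). For Heph, a copper-dependent ferroxidase, for Npnt, the matrix protein nephronectin, and for Upk1b, a uroplakin, the PBS groups were close (-0.02, -0.18 and 0.18) and the KitWsh_MC OVA lungs were the low group. Their differences of the response were 2.02 ± 0.38, 1.39 ± 0.29 and 1.55 ± 0.30.

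**Figure D2:**
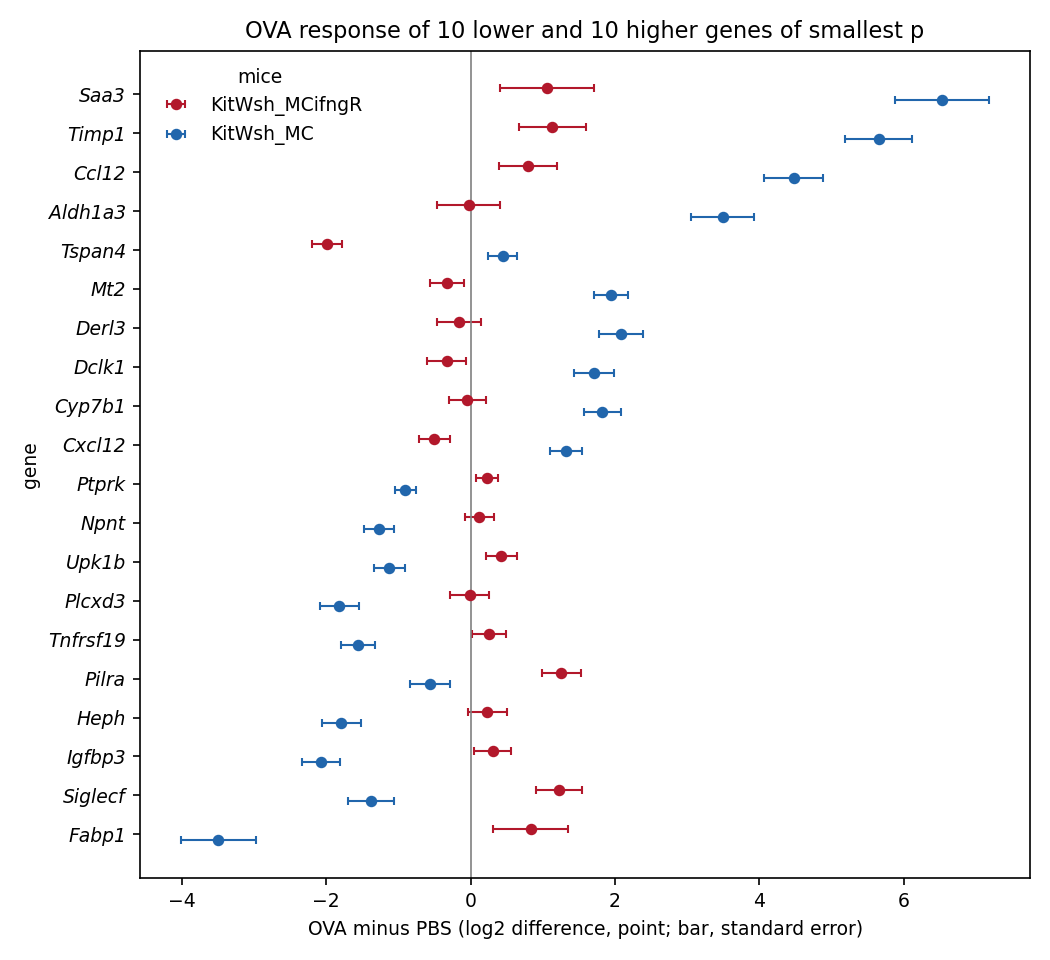
OVA response (OVA minus PBS, x axis, log2; bars, standard error) of the 10 genes of smallest p in each direction of the difference, in KitWsh_MCifngR mice (red) and KitWsh_MC mice (blue), ordered from the most negative difference at the top. Tspan4 had -1.98 in KitWsh_MCifngR mice and 0.44 in KitWsh_MC mice, whereas for most of the others the KitWsh_MC response was the larger.

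Outside these 4 groups, the series holds OVA and PBS lungs of wild-type mice (WT), of KitWsh mice with no engraftment, and of mice engrafted with the code MCigeR. The Timp1 response was 1.13 in KitWsh_MCifngR mice and 5.65 in KitWsh_MC mice, beside 1.19 in KitWsh_MCigeR, 0.56 in KitWsh and 3.24 in WT mice. The Ccl12 response was 0.79 in KitWsh_MCifngR mice and 4.47 in KitWsh_MC mice, beside 0.90, 0.86 and 2.59. Mt2 gave -0.33 and 1.95 beside 0.47, 0.53 and 1.45. The 3 genes thus had their 2 largest responses in KitWsh_MC and WT mice. The Igfbp3 response was 0.31 in KitWsh_MCifngR mice and -2.07 in KitWsh_MC mice, beside -0.14 in KitWsh and -1.76 in WT mice, and in KitWsh_MCigeR mice its PBS arrays spread by an SD of 3.32, too wide to read. Tspan4 did not have that pattern: its OVA and PBS means were 8.75 and 10.73 in KitWsh_MCifngR mice, 10.46 and 10.02 in KitWsh_MC mice, 9.05 and 8.45 in KitWsh_MCigeR mice, 10.78 and 10.78 in KitWsh mice and 10.47 and 8.93 in WT mice. The KitWsh_MCigeR PBS mean of Tspan4 has an SD of 1.57, also too wide to read, and its low means otherwise were those of KitWsh_MCifngR OVA, KitWsh_MCigeR OVA and WT PBS lungs. These values are a description with no test.

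**Figure D3:**
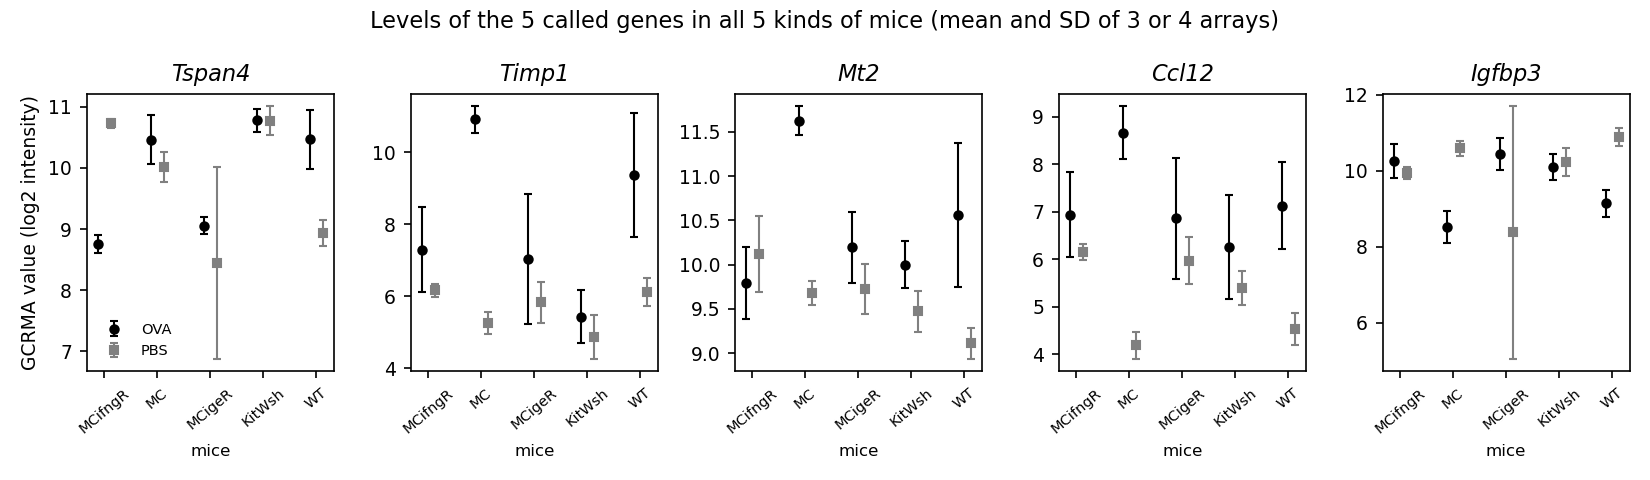
Log2 GCRMA values of the 5 called genes (y axes; mean and SD of 3 or 4 arrays) after OVA (black circles) and PBS (grey squares) in all 5 kinds of mice of the series. For Timp1, Mt2 and Ccl12 the OVA and PBS means were farthest apart in KitWsh_MC and WT mice, and Tspan4 was low in KitWsh_MCifngR OVA, KitWsh_MCigeR OVA and WT PBS lungs.

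The engrafted cells were looked for through 18 listed mast cell genes, of which 16 had a probe set and 8 passed the filter on low values. None of the 8 was called in the difference of the response, and 1, Rab27b, had an unadjusted p under 0.05, beside 14.2% of all tested genes. Their median difference was 0.03, against -0.01 for all genes, but it moved with single arrays. It was -0.52 without KitWsh_MCifngR OVA array 4, 0.57 without the Y-linked arrays, and 1.18, with 5 of 8 genes higher at an unadjusted p under 0.05, without these and the 2 arrays of largest 3' to 5' difference. In bulk tissue fewer cells of a type and less RNA per cell cannot be told apart. The mean log2 level of the 8 genes was 7.79, 7.07, 7.20 and 9.01 in KitWsh_MCifngR OVA lungs and 6.48, 6.50 and 5.99 in KitWsh_MCifngR PBS lungs. It was 7.06, 7.27, 7.00 and 7.71 in KitWsh_MC OVA lungs and 6.03, 5.57 and 6.01 in KitWsh_MC PBS lungs. In each kind the OVA lungs were above the PBS lungs without overlap, and KitWsh_MCifngR OVA array 4 was the highest of all. Cpa3, a member, was above a log2 value of 5 in every OVA lung and in no PBS lung. It entered the test through the groups where it was high, and Tpsb2 averaged only 3.87 over the 14 arrays. The mean level includes such genes, so its order of OVA and PBS lungs is a description and no support for an OVA response.

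Cpa3, the carboxypeptidase of mast cell granules, had 7.92, 5.94, 6.17 and 9.59 in KitWsh_MCifngR OVA lungs and 4.85, 4.81 and 3.18 in KitWsh_MCifngR PBS lungs, against 5.36, 6.16, 6.30 and 7.39 in KitWsh_MC OVA lungs and 3.79, 3.18 and 3.43 in KitWsh_MC PBS lungs. Its difference of 0.29 ± 1.05 did not pass, and the interval of -1.96 to 2.54 leaves room for a large change either way. The same was so of the chymase Cma1 (-0.67 ± 1.02) and the tryptase Tpsb2 (-0.23 ± 0.87). Kit itself, probed in bulk lung where other cells express it too, had a difference of -0.33 ± 0.57, and Hdc, which makes histamine, one of -0.45 ± 0.33. Fcer1a, the IgE-binding chain, gave 0.73 ± 1.00 and Gata2, a transcription factor of mast cells and endothelium, 0.30 ± 0.32. Rab27b, a small GTPase of granule release, was measured more evenly: 8.25, 8.59, 8.65 and 8.72 in KitWsh_MCifngR OVA lungs and 7.58, 7.49 and 7.56 in KitWsh_MCifngR PBS lungs, against 7.50, 7.43, 7.20 and 7.43 in KitWsh_MC OVA lungs and 6.97, 7.15 and 7.32 in KitWsh_MC PBS lungs. The KitWsh_MCifngR OVA lungs were above all others. Rab27b rose in KitWsh_MCifngR mice (1.01 ± 0.15, adjusted p = 0.0318), but its difference of the response, 0.77 ± 0.22, did not pass (adjusted p = 0.187).

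Of the IFN-γ pathway, the receptor chain Ifngr1 had 9.75, 9.86, 9.70 and 9.54 in KitWsh_MCifngR OVA lungs and 9.62, 9.67 and 9.61 in KitWsh_MCifngR PBS lungs. It had 9.60, 8.89, 8.74 and 9.20 in KitWsh_MC OVA lungs and 9.26, 8.78 and 9.33 in KitWsh_MC PBS lungs. Its level was not lower in the KitWsh_MCifngR lungs, in which any engrafted cells are a small part of the tissue, and the probe set cannot check the donor genotype. The difference of the Ifngr1 response was 0.09 ± 0.29 (limma, adjusted p = 0.907), and that of Ifngr2 was -0.01 ± 1.12. Ifng did not pass the filter on low values. Of 18 tested IFN-γ response genes none was called, and the median was -0.47, between -0.71 and 0.38 over the other settings. At an unadjusted p under 0.05, 1 had a lower response, near the 7.63% of all tested genes. That gene was Tap1, the peptide transporter of antigen presentation (-1.31 ± 0.46, limma, adjusted p = 0.239). The median of KitWsh_MCifngR minus KitWsh_MC over the list was -0.03 among OVA arrays, against 0.19 over all genes. Among PBS arrays it was 0.40 with 14 of 18 genes above 0, against 0.23 and 73.4% over all genes. The difference of the response includes both parts. Cxcl9, a chemokine that IFN-γ induces, had 5.63, 8.49, 9.50 and 10.90 in KitWsh_MCifngR OVA lungs, against 8.43, 8.52, 7.98 and 8.98 in KitWsh_MC OVA lungs. These KitWsh_MCifngR OVA lungs spanned a range on both sides of the KitWsh_MC OVA lungs. Among PBS lungs Cxcl9 was higher in KitWsh_MCifngR mice by 2.47. Its response was 1.76 in KitWsh_MCifngR mice and 4.08 in KitWsh_MC mice. The difference of -2.32 ± 1.21 thus lay mostly in the PBS lungs, and it did not pass (limma, adjusted p = 0.397).

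Irf1, an interferon-induced transcription factor, is shown because 1 of its 2 RefSeq start regions holds the GAS element, with capitals marking TTCNNNGAA, which reads the same on both strands (chr11:53769764-53770063, GRCm38.p6, plus strand, 250 bases before to 50 after a RefSeq start).
Irf1: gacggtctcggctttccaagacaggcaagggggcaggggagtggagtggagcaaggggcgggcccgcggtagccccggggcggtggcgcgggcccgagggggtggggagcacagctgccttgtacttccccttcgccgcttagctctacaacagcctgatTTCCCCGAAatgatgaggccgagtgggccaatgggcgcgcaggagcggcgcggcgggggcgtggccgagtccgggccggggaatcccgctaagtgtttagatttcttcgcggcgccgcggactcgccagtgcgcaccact
Irf1 had 10.08, 10.28, 10.56 and 10.73 in KitWsh_MCifngR OVA lungs and 10.53, 10.56 and 10.52 in KitWsh_MCifngR PBS lungs, against 10.38, 10.69, 10.04 and 10.70 in KitWsh_MC OVA lungs and 9.80, 10.20 and 10.16 in KitWsh_MC PBS lungs. All 4 groups lay within 1 log2 unit of each other, and the difference of -0.52 ± 0.29 did not pass (limma, adjusted p = 0.422). Of the 18 tested IFN-γ response genes 14 had a start region in the table, and 6 of the 14 held a GAS element: Irf1, Irf8, Gbp7, Igtp, Irgm2 and Psmb8. The 5 called genes had 6 start regions and 0 held the element, which 8.3% of all regions hold. The 6 are chr7:141474986-141475285 and chr7:141476130-141476429 for Tspan4, chrX:20869916-20870215 for Timp1, the Mt2 region above, chr11:82101595-82101894 for Ccl12, all on the plus strand, and chr11:7213874-7214173 for Igfbp3, on the minus strand. These letters being absent from such a window says nothing about binding.

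Of 10 tested type I interferon response genes, 3 had a lower and 1 a higher response at an unadjusted p under 0.05 (7.63% and 6.61% of all tested genes). None was called, and the median was -0.80. Ifit1 had 8.89, 8.92, 9.30 and 9.33 in KitWsh_MCifngR OVA lungs and 8.81, 9.50 and 9.53 in KitWsh_MCifngR PBS lungs, against 9.43, 9.26, 9.68 and 9.22 in KitWsh_MC OVA lungs and 8.44, 8.35 and 8.20 in KitWsh_MC PBS lungs. The KitWsh_MC PBS lungs were the low group. The PBS groups differed for Ifit1 (0.95, adjusted p = 0.0445) and for Oas2 (1.14, adjusted p = 0.0459), and the differences of the response were -1.23 ± 0.29 and -1.17 ± 0.36.

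Among lists of at least 5 tested genes, that of the cell cycle had the lowest median, at -2.04 over 12 tested genes. Of these, 9 had a lower response at an unadjusted p under 0.05 (7.63% of all tested genes), none a higher one, and 0 were called. Of those 12, OVA raised 10 in KitWsh_MC mice and 0 in KitWsh_MCifngR mice at an adjusted p under 0.05, beside 5.49% and 0.0526% of all tested genes. With so few calls in KitWsh_MCifngR mice, 0 of 12 is near the share over all genes. Among PBS arrays the list was itself higher in KitWsh_MCifngR mice, by a median of 1.22, with all 12 genes above 0. Over all tested genes that median was 0.23, with 73.4% above 0. Among OVA arrays the median of the list was -0.67, against 0.19 over all genes. The difference of the response includes both parts. Rrm2, a subunit of ribonucleotide reductase, had 7.74, 7.99, 7.94 and 9.88 in KitWsh_MCifngR OVA lungs and 8.27, 8.11 and 8.83 in KitWsh_MCifngR PBS lungs, against 9.64, 11.16, 10.08 and 9.74 in KitWsh_MC OVA lungs and 6.93, 7.45 and 6.71 in KitWsh_MC PBS lungs. KitWsh_MCifngR OVA array 4 reached the KitWsh_MC OVA values and the other 3 stayed with the PBS lungs of their kind, which were themselves above the KitWsh_MC PBS lungs. The difference for Rrm2 was -3.15 ± 0.67 (limma, adjusted p = 0.141). The cyclin Ccna2 gave -2.38 ± 0.61, the replication helicase subunit Mcm5 -2.33 ± 0.63, Birc5, which acts in chromosome segregation, -2.34 ± 0.65, and Cdc20, an activator of the anaphase-promoting complex, -1.28 ± 0.37. The list median ran from -2.62 to -0.51 over all other settings, and was -2.62 without KitWsh_MCifngR OVA array 4.

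Of 9 tested genes of the inflammatory chemokine and acute response list, 5 had a lower and 1 a higher response at an unadjusted p under 0.05. Those shares were 7.63% and 6.61% over all tested genes. The list's median was -1.72, and none was called. The neutrophil attractant Cxcl1 had 5.51, 5.89, 5.48 and 8.14 in KitWsh_MCifngR OVA lungs and 6.38, 5.94 and 5.34 in KitWsh_MCifngR PBS lungs, against 7.88, 9.38, 7.37 and 7.97 in KitWsh_MC OVA lungs and 4.27, 4.31 and 4.30 in KitWsh_MC PBS lungs. Array 4 of the KitWsh_MCifngR OVA lungs again lay among the KitWsh_MC OVA values. The difference was -3.49 ± 0.82 for Cxcl1 and -1.72 ± 0.44 for the chemokine Ccl9. The cytokine Il6, a member counted as lower, was above a log2 value of 5 in KitWsh_MC OVA arrays 1 to 3 only. It entered the test through the group where it was high, so no size is given for it, and the list's count and median include such a gene. Orm1, an acute-phase glycoprotein, was above that value in all 4 KitWsh_MC OVA lungs and in 1 KitWsh_MCifngR OVA lung only.

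The 12 tested genes of the interleukin (IL)-4 and IL-13 response had a median of -1.18, with 0 called. At an unadjusted p under 0.05, 5 were lower and 1 higher, beside 7.63% and 6.61% of all tested genes. Arg1, the arginase of alternatively activated macrophages, had 3.71, 5.72, 4.11 and 7.30 in KitWsh_MCifngR OVA lungs and 2.78, 2.60 and 2.71 in KitWsh_MCifngR PBS lungs, against 9.76, 8.20, 12.11 and 9.82 in KitWsh_MC OVA lungs and 3.73, 4.18 and 3.87 in KitWsh_MC PBS lungs. The OVA groups did not overlap. The difference was -3.53 ± 1.17 (limma, adjusted p = 0.221). Eotaxin, Ccl11, which attracts eosinophils, gave -3.20 ± 0.81 (adjusted p = 0.155), and its response was 4.49 ± 0.57 in KitWsh_MC mice (adjusted p = 0.00204). Ccl8, another chemokine, gave -3.09 ± 0.99. Rnase2a, an eosinophil-associated ribonuclease also called Ear11, was between 2.19 and 2.35 in all PBS lungs, at the floor of the values, so no size is given for it. Postn, the matrix protein periostin, was the higher one at 0.95 ± 0.31. Arg1, Ccl11 and Rnase2a were above a log2 value of 5 in all 4 KitWsh_MC OVA lungs, in at most 2 KitWsh_MCifngR OVA lungs and in no PBS lung, and so entered the test largely through the group where they were high. The list's count and median include them, and the sizes given for Arg1 and Ccl11 carry the same limit.

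The goblet cell list, whose genes make and secrete airway mucus, had a median of -1.54 over 9 tested genes (-2.01 to -0.05 over the other settings). At an unadjusted p under 0.05, 4 were lower (7.63% of all tested genes) and none higher, and 0 were called. Slc26a4, the anion exchanger pendrin, had 4.29, 8.52, 7.83 and 12.21 in KitWsh_MCifngR OVA lungs and 4.80, 4.80 and 5.34 in KitWsh_MCifngR PBS lungs. The KitWsh_MC OVA lungs lay close together at 10.93, 10.98, 11.30 and 11.23, and the KitWsh_MC PBS lungs had 3.53, 4.83 and 4.17. The KitWsh_MCifngR OVA lungs therefore ran from PBS level in array 1 to above every other lung in array 4, and the difference of -3.70 ± 1.67 did not pass (limma, adjusted p = 0.34). Agr2, needed to fold mucin, was likewise 4.19 in array 1 and 8.24, 7.77 and 8.71 in the others, against 9.22, 8.34, 9.60 and 9.42 in KitWsh_MC OVA lungs. Among PBS lungs it was higher in KitWsh_MCifngR mice by 1.91, and its difference of the response, -3.83 ± 1.14, includes that part. The mean level of the 9 genes was 5.70, 9.46, 8.83 and 10.44 in KitWsh_MCifngR OVA lungs, against 9.89, 8.50, 9.46 and 10.11 in KitWsh_MC OVA lungs. Over these 9 genes the median of KitWsh_MCifngR minus KitWsh_MC was 0.90 among PBS arrays and -0.65 among OVA arrays. Without array 1 of KitWsh_MCifngR OVA, which also had the second largest 3' to 5' difference, the median of the list was -0.96, and that of the IL-4 and IL-13 list -0.30. The part of RNA quality in these medians was not tested.

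Plasma cell and secretory genes were examined next. Of 12 tested plasma cell genes 5 had a lower response at an unadjusted p under 0.05 and none a higher one (median -0.77). Of 11 genes for protein folding in the endoplasmic reticulum the counts were also 5 and none (median -0.47). Over all tested genes 7.63% were lower at that p, and 0 were called in either list. Creld2, a chaperone of that compartment, had 10.60, 11.16, 10.97 and 11.20 in KitWsh_MCifngR OVA lungs and 10.57, 10.32 and 10.95 in KitWsh_MCifngR PBS lungs, against 11.86, 11.95, 12.15 and 11.83 in KitWsh_MC OVA lungs and 10.49, 10.37 and 10.28 in KitWsh_MC PBS lungs. The KitWsh_MC OVA lungs were above the other 10, and the difference was -1.19 ± 0.26 (limma, adjusted p = 0.141). Mzb1, which aids antibody secretion, gave -2.31 ± 0.57 and Fkbp11, a folding enzyme of secretory cells, -1.91 ± 0.53. The median of the folding list ran from -0.65 to -0.40 over the other settings. That of the plasma cell list ran from -0.96 to -0.20, with -0.33 without the Y-linked arrays and -0.20, with 1 gene lower, without these and the 2 arrays of largest 3' to 5' difference.

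Among other cell types, 4 of 8 dendritic cell genes had a lower response at an unadjusted p under 0.05, beside 7.63% of all tested genes (list median -0.96). Among the 4 were the cytokine receptor Flt3 (-1.72 ± 0.42), the chemokine Ccl22 (-1.59 ± 0.43) and the transcription factor Batf3 (-1.65 ± 0.53). Of 15 monocyte and macrophage genes 2 had a lower response at that p, the scavenger receptor Marco (-3.98 ± 0.94) and the endotoxin co-receptor Cd14 (-1.18 ± 0.33). The median of that list was -0.67 (between -1.22 and 0.23 over the other settings), with 10 genes below 0 and 5 above, up to 1.16. Over all tested genes 7.63% had a lower response at that p, so 2 of 15 is near that share. The B cell list had a median of -0.87 and 1 of 10 genes lower, also near that share. Its mean level was 7.51, 5.67, 5.96 and 8.25 in KitWsh_MCifngR OVA lungs, against 7.17 to 7.87 in KitWsh_MC OVA lungs. The low arrays 2 and 3 were those with Y-linked transcripts, and the list median ran from -1.30 to 0.54 over the other settings. The neutrophil list ran the other way in part, with 3 of 8 genes higher (6.61% of all tested genes), 1 lower and a median of 0.68. That median was 0.17 without KitWsh_MCifngR PBS array 1, 0.17 without the Y-linked arrays (2 higher and 2 lower), and -0.05 without these and the 2 arrays of largest 3' to 5' difference, so its direction was lost. The calcium-binding protein S100a9 had 12.15, 14.09, 13.31 and 12.13 in KitWsh_MCifngR OVA lungs and 11.08, 11.81 and 11.28 in KitWsh_MCifngR PBS lungs, against 11.93, 10.88, 12.30 and 12.28 in KitWsh_MC OVA lungs and 13.32, 12.37 and 12.84 in KitWsh_MC PBS lungs. Its difference of 2.53 ± 0.66 did not pass (limma, adjusted p = 0.161), and the iron-binding granule protein Ltf, of the same list, gave -2.38 ± 0.61.

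Among lists of the lung's structural cells the medians were -0.01 for alveolar type 2, -0.07 for ciliated and 0.22 for club cells. They were 0.33 for endothelial and 0.38 for alveolar type 1 cells, above the upper quartile of all genes (0.32). In each of these 2 lists 2 genes were higher at an unadjusted p under 0.05 (6.61% of all tested genes) and none was called. Over the other settings the endothelial median ran from -0.05 to 0.46 and the alveolar type 1 median from 0.01 to 0.51. Among them Akap5, an anchoring protein of alveolar type 1 cells, gave 1.37 ± 0.33, and the endothelial receptors Tek and Eng 1.15 ± 0.43 and 0.85 ± 0.31. The smooth muscle list had a median of -0.70, the T cell list -0.51 and the list of NK and cytotoxic cells -0.28, with no gene called in any of the 3. Of 17 matrix and remodelling genes, 4 had a higher and 3 a lower response at an unadjusted p under 0.05 (6.61% and 7.63% of all tested genes), with a median of -0.13. Timp1 was the called member, and the matrix glycoprotein Tnc gave -2.32 ± 0.73, with 5.02, 5.48, 5.47 and 7.43 in KitWsh_MCifngR OVA lungs, against 7.37, 7.02, 8.94 and 8.09 in KitWsh_MC OVA lungs. The protease Mmp9 gave 1.26 ± 0.46.

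**Figure D4:**
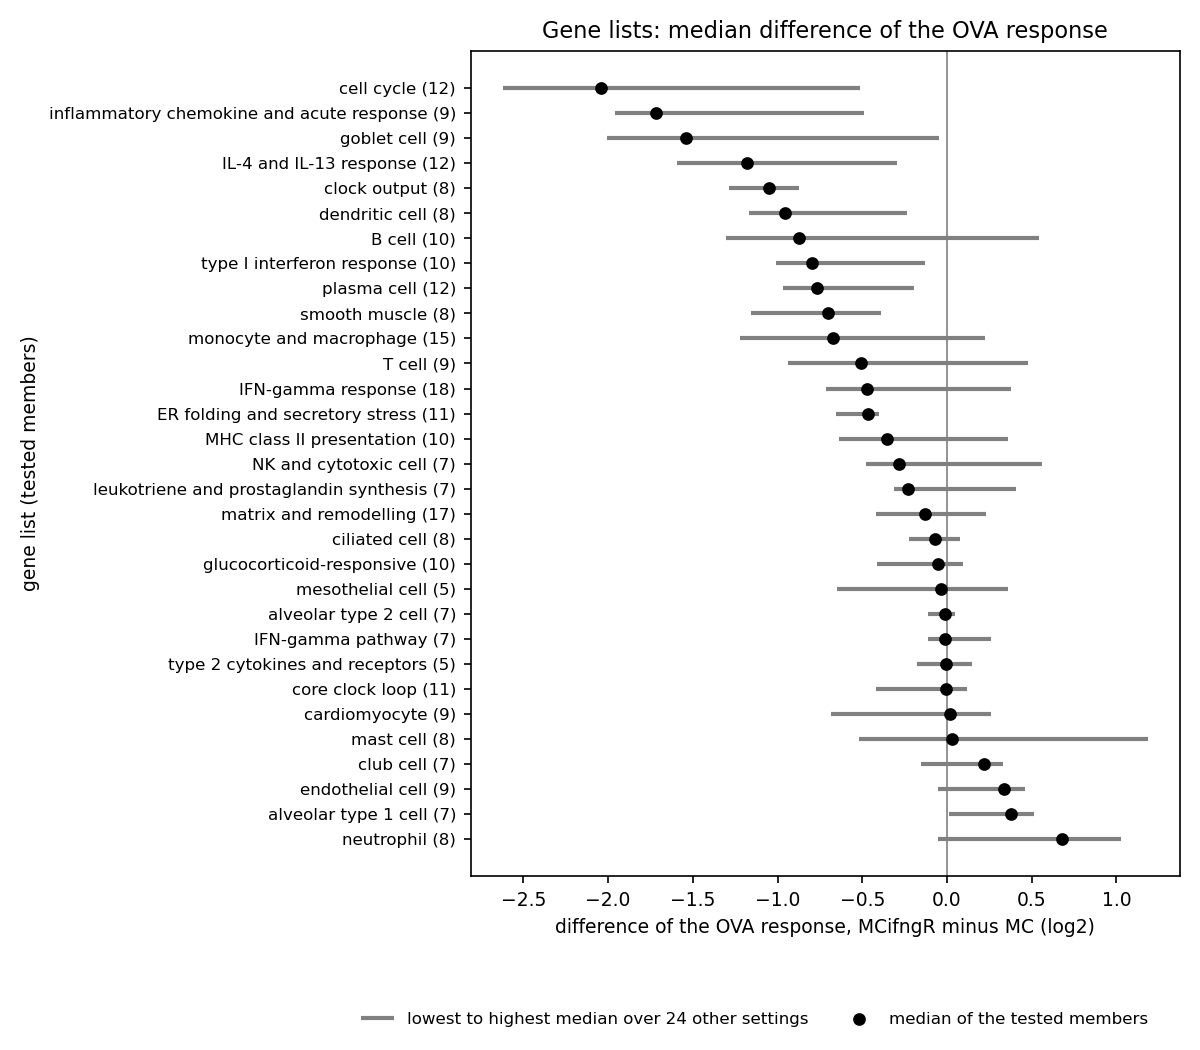
Median difference of the OVA response (x axis, log2, KitWsh_MCifngR minus KitWsh_MC) of the tested members of each gene list with at least 5 tested members (points), and the lowest to highest such median over the other settings (grey lines), with the number of members in brackets. The cell cycle, inflammatory and goblet cell lists had the lowest medians (-2.04, -1.72 and -1.54), and the lines of many other lists, among them the B cell, T cell, monocyte and macrophage, IFN-γ response, mast cell and neutrophil lists, ran across 0.

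Circadian clock genes were among the few changes within KitWsh_MCifngR mice. In the clock, Clock or Npas2 pairs with Arntl. The pair switches on the Per, Cry and Nr1d genes and the output factors Dbp, Tef and Hlf. Per and Cry proteins later hold the pair back, so that the arms peak at opposite times of day. Of 19 tested clock genes 5 were called in KitWsh_MCifngR mice, beside 11 (0.0964%) of all tested genes. In KitWsh_MC mice 6 of the 19 were called, beside 1023 (8.96%) of all tested genes. Npas2 and Dbp were called in both kinds. These counts do not test a difference between the kinds. The 5 calls mostly did not hold when 1 array was left out. Of these 14 fits, 7 called 0 clock genes in KitWsh_MCifngR mice, 4 called 1 and 3 called 2 or more. Each of those 7 called only 1 gene of any kind, so calls in general were lost. Without KitWsh_MCifngR OVA array 1 there were 11 clock genes among 103 calls. Limma called 2 clock genes without the Y-linked arrays, 14 without the 2 arrays of largest 3' to 5' difference and 12 without both sets. It called 0 without the filter on low values and 7 with all 36 arrays. Leaving out only KitWsh_MCigeR PBS array 2 of the 36 gave 14. Arntl had 6.47, 8.11, 8.14 and 7.33 in KitWsh_MCifngR OVA lungs and 4.28, 4.84 and 4.93 in KitWsh_MCifngR PBS lungs, against 4.60, 4.89, 4.56 and 6.33 in KitWsh_MC OVA lungs and 5.11, 3.97 and 4.57 in KitWsh_MC PBS lungs. The KitWsh_MCifngR OVA lungs were above all others. Arntl rose in KitWsh_MCifngR mice (2.82 ± 0.47, adjusted p = 0.0474), and its difference of the response was 2.28 ± 0.66, which did not pass (limma, adjusted p = 0.189).

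Per2, a repressor of the loop, lay on the other side. It had 7.85, 6.44, 6.91 and 6.39 in KitWsh_MCifngR OVA lungs and 8.84, 8.76 and 8.68 in KitWsh_MCifngR PBS lungs, against 8.17, 7.92, 7.44 and 7.34 in KitWsh_MC OVA lungs and 7.21, 8.08 and 7.51 in KitWsh_MC PBS lungs. Its difference of -1.98 ± 0.46 did not pass (limma, adjusted p = 0.141). Dbp fell in both kinds, by 3.38 on the log2 scale in KitWsh_MCifngR mice and by 1.86 in KitWsh_MC mice, and the difference of -1.52 ± 0.76 did not pass. Tef and Per1 fell in KitWsh_MCifngR mice (-1.57 ± 0.27 and -1.52 ± 0.26), with differences of -1.12 ± 0.38 and -0.92 ± 0.37. Of the 11 core loop genes 3 had a higher response at an unadjusted p under 0.05 (Arntl, Clock at 0.83 ± 0.26 and Npas2 at 1.44 ± 0.60) and 4 a lower one (Per2, Cry1 at -0.98 ± 0.37, Per1 and Per3 at -1.31 ± 0.59). Of the 8 output genes 3 were lower (Wee1, a cell cycle kinase, at -1.75 ± 0.46, the repressor Bhlhe40 at -1.58 ± 0.48, and Tef), and Nfil3, a repressor among the outputs, lay at 0.09. At that unadjusted p 6.61% of all tested genes were higher and 7.63% lower. None of the 19 was called in the difference of the response. The time of day at which lungs were taken is not given in the labels, and its part in these values was not tested.

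**Figure D5:**
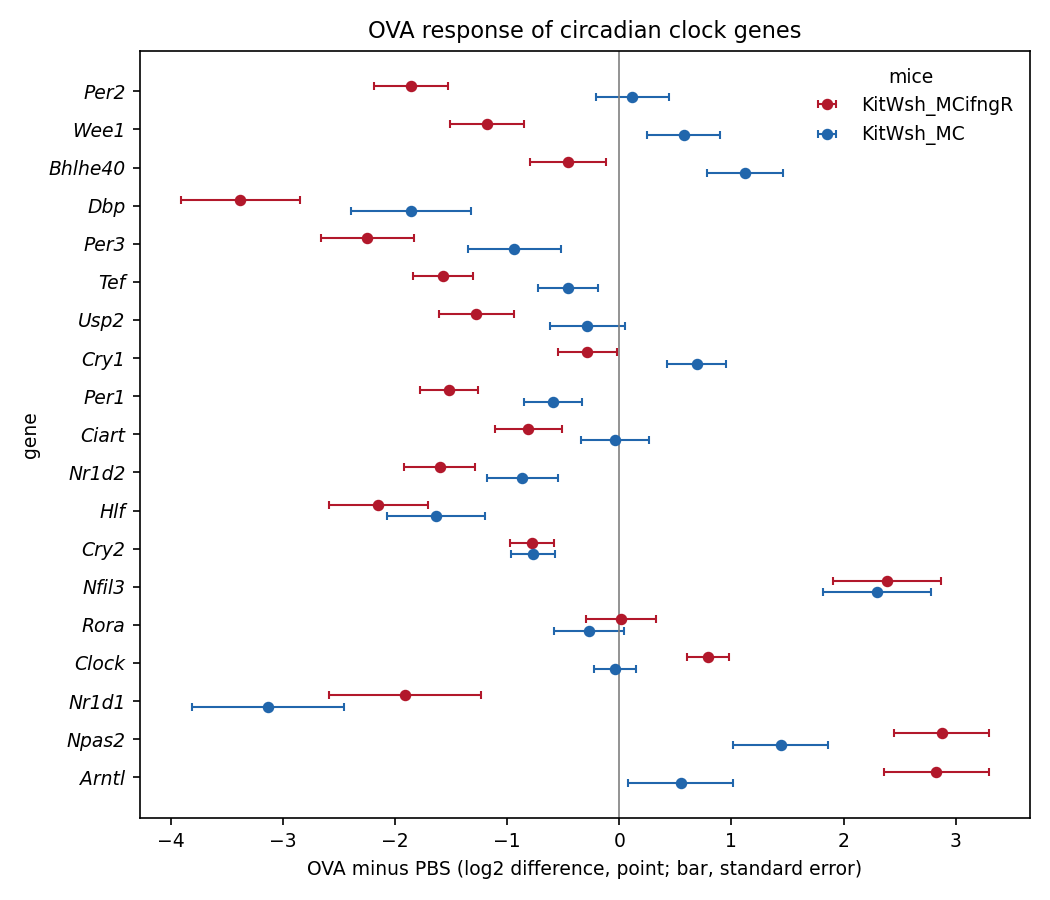
OVA response (OVA minus PBS, x axis, log2; bars, standard error) of the 19 tested circadian clock genes in KitWsh_MCifngR mice (red) and KitWsh_MC mice (blue), ordered from the most negative difference of the response at the top. Arntl, Npas2 and Clock lie farther right and Per2, Per3, Dbp and Tef farther left in KitWsh_MCifngR mice.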

How the data were processed

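Lung total RNA was hybridised to 1-colour Affymetrix mouse arrays. Per the submitters' processing notes the authors used GCRMA (version not given in the sources used here), a method that models probe background, normalises by quantiles and summarises probe sets, and deposited log2 values. They ran from 2.19 to 15.9, and the lowest have no order. Of 45101 probe sets, 64 controls were left out. Platform annotation gave 1 symbol for 34945, several for 932 and none for 9211. The probe set of highest mean over the 14 arrays stood for each of 18193 genes, and the 11414 that exceeded 5 (log2) on 3 or more arrays were tested.

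Limma 3.58.1 in R 4.3.3 (lmFit, eBayes) fitted 4 group means to 14 arrays (10 residual degrees of freedom) and 5 contrasts, with Benjamini-Hochberg adjustment over all tested genes. The number of arrays limits the precision. The fit was tested on simulated data. Groups came from sample titles, whose running numbers pair no samples. The 35 gene lists (388 genes, 362 on the array, 296 tested), the named genes and the comparison were chosen with earlier results of these data known. Named genes are all called ones and, up to 10 a direction, those of smallest p, plus Kit, Ifngr1, Ifngr2, Ifng, mast cell and clock genes and up to 5 members of smallest p of other lists, passing over immunoglobulin segments and unnamed genes. Start regions are from RefSeq (GRCm38.p6), with 1 chromosome, 18, not used here. The results were recomputed under 24 other settings, 14 of them leaving out 1 array.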

Additional observations from a re-analysis of the deposited data

Results flagged for a closer look

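The OVA response differed between KitWsh_MCifngR and KitWsh_MC mice by the test of the difference itself for 5 genes: -4.52 for Timp1, -3.68 for Ccl12, -2.43 for Tspan4, -2.28 for Mt2 and 2.38 for Igfbp3 (log2, limma, adjusted p under 0.05). Their levels in every array are given above.

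Among the 20 genes of smallest p, the highest or lowest of 4 OVA arrays lay far from the others in 1 of 40 groups of 4 examined, where chance gives about 1 in 20. It was Upk1b in KitWsh_MC OVA array 2, at 6.39 against 6.84 to 6.87 in the other 3. That array also had the largest 3' to 5' difference, and its part in this value was not tested.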

How the results depend on the processing

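The 5 called genes and the 15 named next in order of p within each direction kept the sign of their difference in all 24 other settings. They were chosen on these arrays, which the settings largely share, so a kept sign adds no evidence. Called by limma with all 36 arrays were Mt2 but not Tspan4 (adjusted p = 0.0689), Timp1 (0.0848), Ccl12 (0.0689) or Igfbp3 (0.388). When KitWsh_MCigeR PBS array 2, outside the compared groups, was left out of the 36, all 5 were called. The standard error of Tspan4 was 0.53 with 36 arrays and 0.29 with those 35. Without the filter on low values Tspan4 alone of the 5 was called. The count of 5 became 8 after quantile normalization and 9 after centring each array, where 4 and 5 were higher instead of 1, 12 with the beta-actin 3' to 5' difference as covariate, 0 without the Y-linked arrays, 21 without the arrays of largest 3' to 5' difference, 10 without both sets, and 192 with 35 arrays, which left out KitWsh_MCigeR PBS array 2 (the last 2 settings were chosen after seeing the data). Leaving out 1 array gave 0 to 348.

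The 11 calls within KitWsh_MCifngR mice became 19 with all 36 arrays, 3 without the filter, 5 with probe sets averaged per gene, 4 without the Y-linked arrays, 170 without the largest 3' to 5' arrays, 89 with 35 arrays and 661 without both sets, and 1 to 103 without 1 array. The 1023 within KitWsh_MC mice became 606 without the filter, 1551 with the covariate, 2369 with 35 arrays and 1734 without both sets, and 245 to 1654 without 1 array. The 2703 among OVA groups became 1507 with 36 arrays, 1410 without the Y-linked arrays, 1609 without the largest 3' to 5' arrays, 4248 with 35 arrays and 185 without both, and 1706 to 3281 without 1 array. The 267 among PBS groups became 81 after quantile normalization, 113 after centring, 676 with the covariate, 76 without the Y-linked arrays, 1272 without the largest 3' to 5' arrays, 1760 with 35 arrays and 1485 without both, and 0 to 912 without 1 array. Among OVA groups 82.7% of calls were higher in KitWsh_MCifngR mice, and 62.1% and 59.6% after quantile normalization and centring; among PBS groups 69.7%, and 27.2% and 28.3%. The causes of these moves were not tested. No paired analysis was possible because the labels carry no replicate numbers shared between groups.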

Other observations

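Besides Tspan4, Rab27b and the 5 clock genes, 4 genes were called in the OVA response of KitWsh_MCifngR mice, named here after their values were seen. Slc6a4, the serotonin transporter, rose by 1.33 ± 0.22 in KitWsh_MCifngR mice, and its response in KitWsh_MC mice was 0.24, which did not pass (difference 1.09, limma adjusted p = 0.188). Leo1, a subunit of the PAF transcription complex, rose by 1.31 ± 0.20, beside 0.25 in KitWsh_MC mice, which did not pass. Rasl11a, a Ras-like protein, rose in both kinds (1.44 in KitWsh_MCifngR and 1.12 in KitWsh_MC mice), and Zfp346, a zinc finger protein, fell in both (-0.92 and -0.94).

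Xist, which female cells transcribe from the silenced X chromosome, had a difference of -3.08 ± 1.58 that did not pass (limma, adjusted p = 0.388). It was low in KitWsh_MCifngR OVA arrays 2 and 3 (7.30 and 7.70) and between 11.25 and 13.07 in the other 12.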
